A study of Mus musculus with 4 samples.

Results

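The 10 genes of transforming growth factor beta (TGF-beta) signalling were followed through single cells of mouse glomeruli: the ligands Tgfb1, Tgfb2 and Tgfb3, the ligand-storing protein Ltbp1, the receptors Tgfbr1, Tgfbr2 and Tgfbr3, the co-receptor Eng, the pathway inhibitor Smad7 and the secreted matrix protein Tgfbi. They were chosen by gene symbol, with earlier results of these data known. Each of the 10 matched exactly 1 of the 52636 genes in the count matrices. Every one was detected, with between 659 UMIs (unique molecular identifiers, each standing for 1 captured transcript) for Tgfb3 and 77866 for Eng in the cells kept.

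The study compared glomeruli, the filtering units of the kidney, from young and aged mice that received no treatment. Kidneys were perfused with magnetic beads, and glomeruli were held on a magnet and dissociated with enzymes before droplet 3′ sequencing, in 2 young and 2 aged libraries. Age in months, strain, sex and the number of mice per library are not given in the sources used here, so that p-values measure the spread between libraries, which may be technical. The deposited matrices held 5532 and 9649 barcodes for young replicates 1 and 2, and 10621 and 7521 for aged replicates 1 and 2. After filtering, 5035, 6976, 9187 and 6802 cells were kept, with a median of 2935, 1258, 2715 and 3730 UMIs. Young replicate 2 stood apart: 4173 of its cells lay in clusters with markers of unrelated cell types and were left out, against 74 to 190 in the other libraries. Any 2 libraries shared between 9 and 31 barcodes.

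TGF-beta ligands are secreted in a latent form, held in the matrix by latent TGF-beta binding proteins such as LTBP1, and released by integrins or thrombospondin. The active ligand joins the type II receptor TGFBR2 and the type I receptor TGFBR1, which phosphorylates SMAD2 and SMAD3. TGFBR3 (betaglycan) and endoglin (encoded by Eng) present ligands, SMAD7 shuts the receptors off, and in the kidney the pathway is known for driving matrix deposition in glomerulosclerosis.

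Cells were assigned to marker-defined classes, named below without the suffix "-like". The young libraries held 1764 and 604 podocyte-like cells, the aged ones 992 and 658. Endothelial-like cells numbered 2412 and 1428 against 6032 and 4306, mesangial-like cells 288 and 180 against 707 and 548, and parietal epithelial-like cells 33 and 78 against 53 and 67. All 10 podocyte, 10 endothelial, 8 mesangial and 6 parietal epithelial markers had a UMI in every library of their own class. The classes were named from these same markers, so this is a description. Levels are counts per 1000000 UMIs of the class (CPM), and 3′ counts are not divided by gene length, so a level is compared between classes for 1 gene and not between genes. An age effect was called at a Benjamini-Hochberg adjusted p under 0.05 in edgeR's quasi-likelihood test on summed counts. Of 10 members tested in mesangial cells 3 were called, all higher with age, where 6.60% of all genes tested were called in either direction and 4.34% as higher. In parietal epithelial cells 1 of 6 was called, against 3.13% of all genes, whereas 0 of 7 were called in podocytes and 0 of 10 in endothelial cells, against 5.53% and 6.19%. DESeq2 called 3, 0, 0 and 0 members in these classes. Over all genes it called 431 of 10969, 49 of 4759, 263 of 10889 and 501 of 13176. At an unadjusted p under 0.05, edgeR gave 5 mesangial, 3 parietal epithelial, 1 podocyte and 2 endothelial members. The share of all genes under that unadjusted p was not computed, so no excess is read from such counts. The values of the 2 ages did not overlap for 7 of 10 mesangial, 4 of 6 parietal epithelial, 2 of 7 podocyte and 4 of 10 endothelial members, against 55.2%, 48.2%, 46.1% and 52.4% of all genes tested. The median log2 fold change of the members tested was 0.65 in mesangial cells, 0.19 in endothelial cells, -0.13 in podocytes and -0.07 in parietal epithelial cells. Over all genes it was -0.01, -0.01, 0.00 and 0.00. The mesangial median includes Ltbp1, whose direction depended on the choice of cells.

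The promoters of the 3 called genes for which a RefSeq promoter was used are shown because these genes changed with age, Tgfb1 and Eng in the same cells. Each window covers the 250 bases before the RefSeq transcription start (GRCm38.p6), written 5′ to 3′ along the gene.
Tgfb1 (chr7:25686752-25687001, plus strand): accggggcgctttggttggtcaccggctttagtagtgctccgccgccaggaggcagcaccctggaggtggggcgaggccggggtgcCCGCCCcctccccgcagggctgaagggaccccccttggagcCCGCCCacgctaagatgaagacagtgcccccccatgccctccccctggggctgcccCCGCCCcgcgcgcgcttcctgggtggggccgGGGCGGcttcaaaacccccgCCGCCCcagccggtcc
Eng (chr2:32646345-32646594, plus strand): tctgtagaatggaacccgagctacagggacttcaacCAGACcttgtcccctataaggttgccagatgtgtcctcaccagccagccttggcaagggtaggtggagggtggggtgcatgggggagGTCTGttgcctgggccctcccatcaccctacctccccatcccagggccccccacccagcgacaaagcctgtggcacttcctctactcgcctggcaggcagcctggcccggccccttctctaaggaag
Tgfb2 (chr1:186705990-186706239, minus strand): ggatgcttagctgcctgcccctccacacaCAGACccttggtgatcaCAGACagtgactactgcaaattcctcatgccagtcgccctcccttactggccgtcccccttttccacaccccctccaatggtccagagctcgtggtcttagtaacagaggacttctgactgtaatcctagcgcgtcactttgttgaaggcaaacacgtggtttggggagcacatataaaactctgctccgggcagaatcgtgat
Capitals mark matches, on either strand, to the SMAD-binding CAGA box core CAGAC, the AP-1 motif TGANTCA or the GC box GGGCGG; these motifs do not overlap in the windows. Tgfb1 held 5 GC boxes and no CAGAC. Eng and Tgfb2 each held 2 CAGAC and no GC box. None of the 3 held TGANTCA. Of 32851 promoter windows of this length, 42.2% held CAGAC, 32.7% GGGCGG and 6.75% TGANTCA. A match describes the letters only.

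Tgfb1 encodes the ligand TGF-beta 1. Among classes with at least 20 cells in every library it was highest in monocytes, at 376 and 410.0 CPM in young and 347 and 291 in aged libraries, with no overlap with the next class. Macrophages reached 341 and 296 CPM in the aged libraries, the young ones holding only 3 and 9 such cells. B cells, endothelial and mesangial cells followed with overlapping ranges. Podocytes were lowest, between 4.26 and 7.003 CPM.

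In mesangial cells, the contractile cells between the capillary loops, Tgfb1 stood at 121 and 96.5 CPM in young and 251 and 163 in aged libraries. Both aged values lay above both young ones. The log2 fold change was 1.02 (SE 0.23, adjusted p = 0.0229, edgeR). Endothelial cells had 156 and 130.1 against 201 and 147 CPM, overlapping ranges with a log2 fold change of 0.40 (SE 0.17, adjusted p = 0.194). With the replicate number as a block, which the labels do not state to pair libraries, it was 0.40 with an adjusted p of 0.0363. The age effect was larger in mesangial than in endothelial cells by 0.60 (SE 0.16, adjusted p = 0.0364 for the interaction, edgeR). It was also larger than in podocytes, by 1.26 (SE 0.34, adjusted p = 0.0286). Monocytes, a class whose test was added after the data were seen, had lower Tgfb1 levels in both aged libraries, but the difference was not called (adjusted p = 0.606, edgeR).

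Eng was the second mesangial member called. Its product, endoglin, is a co-receptor best known from endothelium. Levels were highest in endothelial cells, at 1118 and 1176 CPM in young and 1265 and 1242 in aged libraries. Mesangial cells came next with 838 and 753 against 1235 and 1139 CPM, and no other class exceeded 222 CPM where it had at least 20 cells in every library. The mesangial log2 fold change was 0.68 (SE 0.16, adjusted p = 0.0284, edgeR), with both aged values above both young ones. Expressed relative to endothelial cells of the same library, mesangial Eng stood at 74.9% and 64.0% in young and 97.6% and 91.7% in aged libraries. In endothelial cells the log2 fold change was 0.25 (SE 0.16, adjusted p = 0.445).

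Smad7, the inhibitor that TGF-beta itself induces, was the remaining mesangial call. Mesangial cells had 122 and 138 CPM in young and 254 and 176 in aged libraries, without overlap. The log2 fold change was 0.84 (SE 0.20, adjusted p = 0.0313, edgeR). Podocytes had 36.3 and 30.1 against 31.7 and 27.7 CPM, and the age effect differed from the mesangial one by 1.04 (SE 0.21, adjusted p = 0.00304 for the interaction). Endothelial cells had 222 and 231 against 278 and 252 CPM, with a log2 fold change of 0.35 (SE 0.15, adjusted p = 0.188). Across classes with 20 cells in every library, Smad7 was highest in T and NK cells (187 to 391 CPM), smooth muscle and renin cells (195 to 301 CPM) and endothelial cells, whose ranges overlapped. Monocytes (18.0 to 35.8 CPM) and podocytes (27.7 to 36.3 CPM) were lowest and overlapped.

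The 3 mesangial calls depended on single libraries and on which cells were counted. Without young replicate 1 no member was called, with Tgfb1 at a log2 fold change of 1.22 (adjusted p = 0.200), Eng at 0.77 (adjusted p = 0.277) and Smad7 at 0.76 (adjusted p = 0.319) by edgeR. Leaving out young replicate 2 gave 0.88, 0.59 and 0.92, with adjusted p of 0.292, 0.401 and 0.244. All 3 were called when either aged library was left out. Omitting aged replicate 1 gave 0.63 for Tgfb1 and 0.53 for Smad7, and omitting aged replicate 2 gave 1.33 and 1.12. A mixed cluster led by mesangial markers, left out here, held 145 and 1140 young but only 4 and 6 aged cells. Another such cluster, also left out, held 3 and 3 young against 47 and 90 aged cells. Keeping mixed cells added both to the mesangial class. With mixed cells kept, the log2 fold changes were 0.88 for Tgfb1 (adjusted p = 0.0914), 0.51 for Eng (adjusted p = 0.128) and 0.54 for Smad7 (adjusted p = 0.184). After thinning to 1000 UMIs per cell they were 0.99, 0.62 and 0.80 (adjusted p = 0.0688, 0.0662 and 0.0958), and at Leiden resolution 0.5 they were 0.89, 0.55 and 0.60 (adjusted p = 0.0507, 0.0827 and 0.0945). Eng and Smad7 also missed the threshold with doublets kept (adjusted p = 0.0729 and 0.0694) and at resolution 2 (adjusted p = 0.0639 and 0.0538), where Tgfb1 was called.

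Markers of endothelial and parietal epithelial cells moved with these results. All 10 endothelial markers were detected in mesangial cells, summing to 925 and 1030 CPM in young and 1507 and 1378 in aged libraries, or 5.60% and 6.24% against 9.13% and 8.35% of their level in endothelial cells. Of 6 parietal epithelial markers 2 were detected, summing to 378 and 358 against 1990 and 878 CPM, with Pax8, Pax2, Dkk3 and Krt18 at 0. Among 12 genes induced by tissue dissociation, 4 fell in mesangial cells (Egr1, Atf3, Jun and Nr4a1) and 0 rose. Of all genes tested there, 2.26% were called lower. In podocytes 3 of the 12 rose and 1 fell, and in endothelial cells 1 rose and 0 fell. Median UMIs per mesangial cell were 3806 and 3539.5 in young and 4577 and 7216.5 in aged libraries. Macrophages, where Tgfb1 and Tgfbi were high, numbered 3 and 9 in young and 536 and 473 in aged libraries. Their markers in mesangial cells are not given here. The part of any of these in the results was not tested.

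After each cell was thinned to 1000 UMIs, which left out 4, 19, 6 and 3 shallower mesangial cells, Eng was detected in 52.1% and 50.9% of young and 68.8% and 67.3% of aged mesangial cells. The unthinned shares were 89.2% and 83.3% against 95.6% and 96.2%. Podocytes, at median depths of 4198 to 7666.5 UMIs, showed a thinned share of 0.341% to 2.08% for Eng. The 10 endothelial markers summed in podocytes to between 3013 and 3568 CPM, or 18.3% to 21.6% of their level in endothelial cells, above the mesangial shares. These sums were not split by gene, and whether they come from endothelial RNA was not tested. The level of free RNA was not estimated. Tgfb1 was detected in 10.9% and 9.94% against 22.4% and 14.7% of thinned mesangial cells (40.6% and 30.6% against 66.9% and 61.9% unthinned), and in 0.605% to 1.04% of thinned podocytes.

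**Figure D1:**
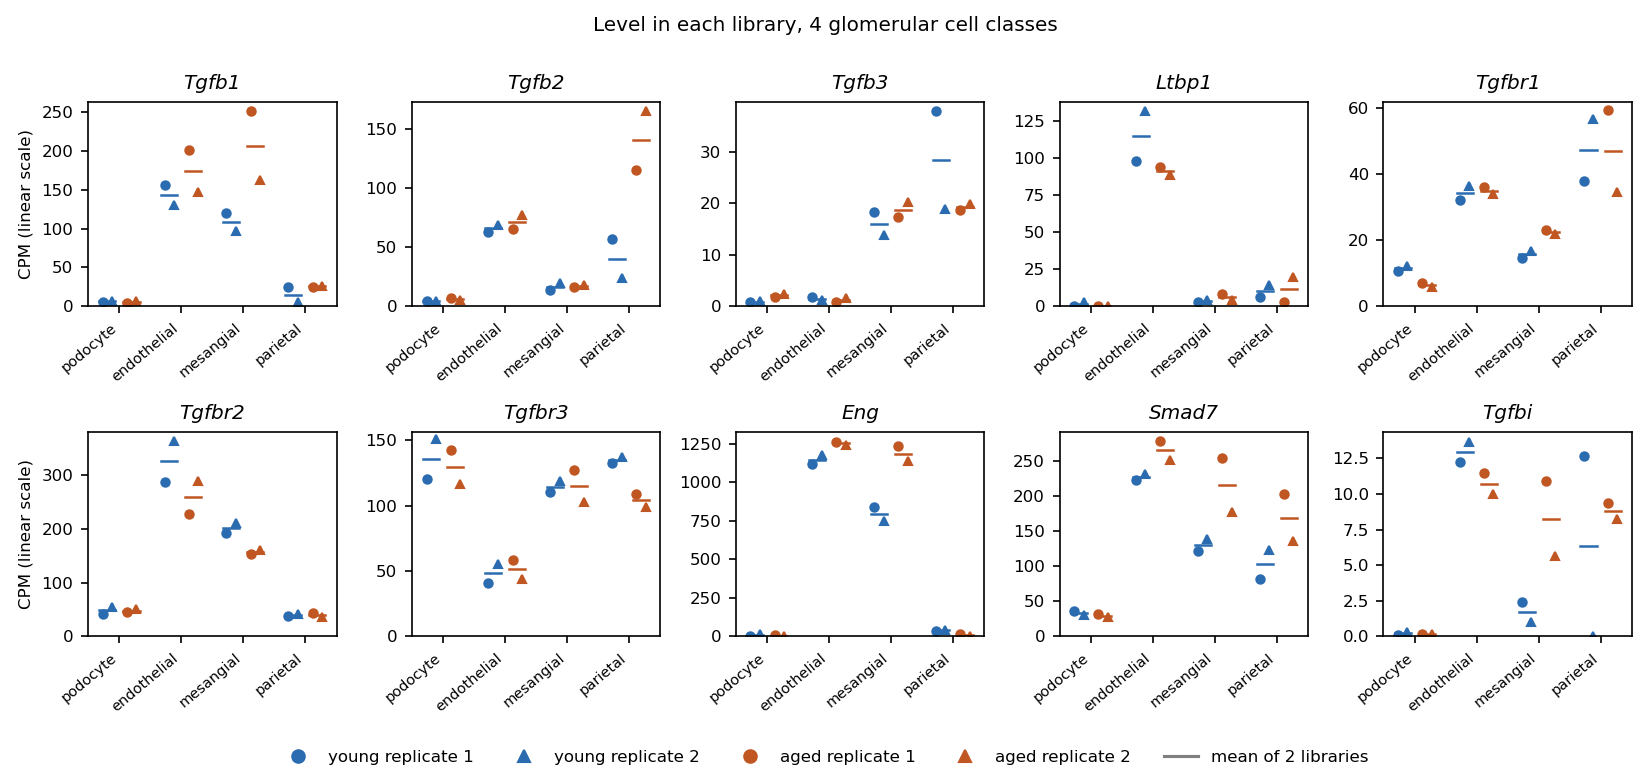
Levels of the 10 genes (CPM, linear axis) in podocytes, endothelial, mesangial and parietal epithelial cells; each point is 1 library, blue for young and orange for aged, and short lines are means of 2 libraries. In mesangial cells both aged points lie above both young ones for Tgfb1, Eng and Smad7, and in parietal epithelial cells for Tgfb2.

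Tgfb2, the ligand known for roles in epithelial and vascular development, was the member called in parietal epithelial cells, the lining of Bowman's capsule. Levels there were 56.9 and 23.7 CPM in young and 116 and 165 in aged libraries, from 9, 5, 37 and 100 UMIs. Both aged values exceeded both young ones, with a log2 fold change of 1.94 (SE 0.41, adjusted p = 0.0228, edgeR). The age effect was larger than in endothelial cells by 1.78 (SE 0.40, adjusted p = 0.00192 for the interaction). DESeq2 gave 1.89 with an adjusted p of 0.0981, and without young replicate 2 edgeR gave 1.38. Tgfb2 was called in 8 of the 13 alternatives with a value, where the log2 fold change ran from 1.38 to 2.66. The call was lost in these 2 settings and with doublets kept, the stricter mitochondrial limit or the lower Leiden resolution (adjusted p up to 0.674, edgeR). Its difference from endothelial cells was called in 6 of 13 alternatives, and ran from 0.85 to 2.50. Smooth muscle and renin cell markers in parietal epithelial cells summed to 2321 and 2724 CPM in young and 5187 and 6888 in aged libraries, with 3 or 4 of 8 detected and Cnn1, Akr1b7 and Rergl at 0 throughout. Tagln made up most of each sum and Acta2 most of the rest. Of the dissociation genes, 7 of 12 fell in parietal epithelial cells and 0 rose, where 1.34% of all genes tested were called lower. Whether either bears on Tgfb2 was not tested.

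Smooth muscle and renin cells had the highest mean Tgfb2 level, at 94.1 and 122 against 74.1 and 62.9 CPM, overlapping with parietal epithelial cells. Endothelial cells came after these with 62.9 and 68.9 against 65.6 and 77.4 CPM. No UMI of Tgfb2 was seen in 767 monocytes, which allows a share of cells with a UMI of up to 0.391%.

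Within the endothelial class, Tgfb2 was concentrated in a pair of the 5 clusters. Cluster 5, led by Esm1, Igfbp3 and Tgfb2 itself, had 363 and 407 CPM in young and 414 and 470.1 in aged libraries. Cluster 6, led by Tspan8, Thbs2 and Fbln2, had 219.6 and 258 against 124 and 177 CPM. The largest cluster, number 0, whose leading genes include Sele and Il6, had between 9.93 and 17.5 CPM. Smad7 was lower in cluster 0, at 139 to 216 CPM, than in cluster 1, at 322 to 378 CPM, a cluster led by Id1, Klf2 and Klf4 among others. Eng was lowest in cluster 6, at 670.0 and 671 against 888 and 853 CPM. Clusters were made from these cells' own transcripts, so the differences between clusters are a description. Cluster 5 held 184 and 52 young against 893 and 530 aged cells.

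**Figure D2:**
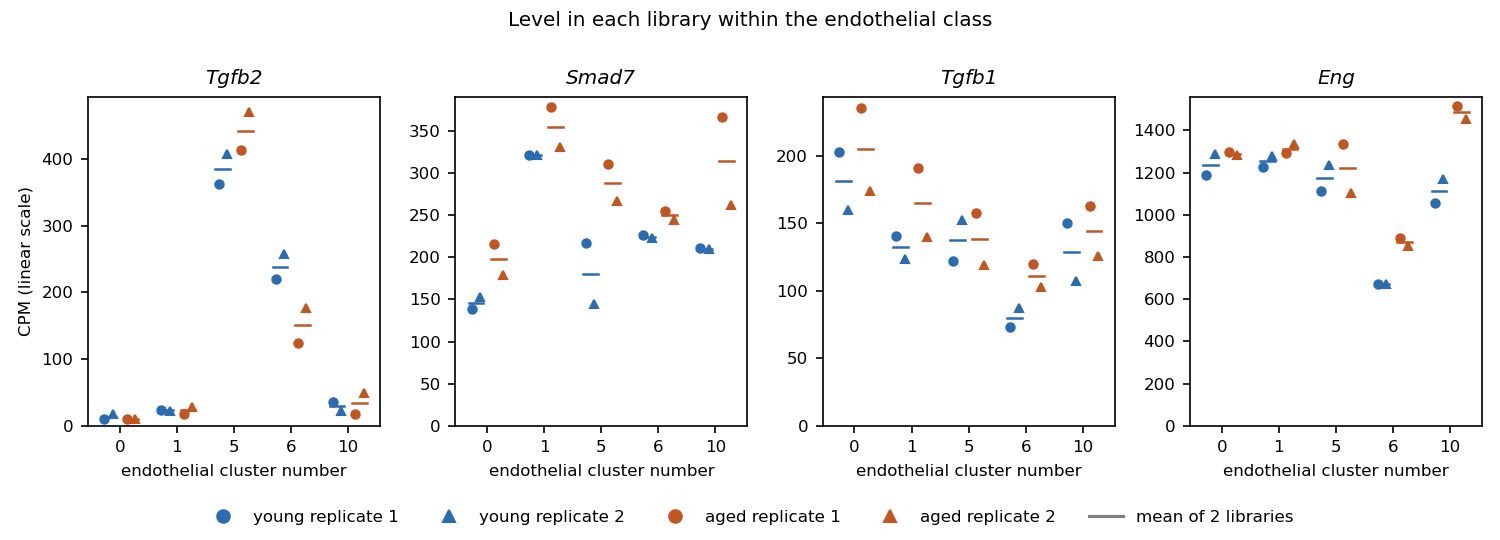
Levels of Tgfb2, Smad7, Tgfb1 and Eng (CPM, linear axis) in the 5 endothelial clusters; points are libraries and short lines the means of 2 libraries of an age. Tgfb2 lies between 363 and 470.1 CPM in cluster 5 and between 9.93 and 17.5 CPM in cluster 0.

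The remaining ligand, Tgfb3, and the ligand-storing Ltbp1 shared a leading class. Tgfb3 was highest in smooth muscle and renin cells, at 72.7 and 110.4 CPM in young and 69.5 and 62.9 in aged libraries, above every other class in each library. Mesangial cells had 13.8 to 20.3 CPM and endothelial cells 0.804 to 1.73 CPM. Ltbp1 reached 149.7 and 167 against 153 and 233 CPM in smooth muscle and renin cells. Endothelial cells came second, with 97.8 and 132 against 93.9 and 88.6 CPM. Neither gene was called in any class tested.

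Ltbp1 in mesangial cells turned on the choice of cells. As reported, it had 5 and 4 UMIs in young and 42 and 26 in aged libraries, or 3.06 and 3.94 against 8.16 and 4.33 CPM, and a log2 fold change of 0.95 (SE 0.56, adjusted p = 0.35, edgeR). With mixed cells kept it had 35.5 and 34.4 against 9.23 and 9.17 CPM, and a log2 fold change of -1.76 (adjusted p = 0.00401). The reverse direction was also called with doublets kept and at both other clustering resolutions, so no direction is given for mesangial Ltbp1.

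Tgfbr1 encodes the type I receptor kinase. In the aged libraries it was highest in macrophages, at 319 and 181 CPM. Among classes with 20 cells in every library, monocytes led with 54.2 and 75.6 CPM in young and 117 and 109 in aged libraries, with a log2 fold change of 0.81 (SE 0.27) that was not called (adjusted p = 0.256, edgeR). Podocytes were lowest, at 10.7 and 12.2 against 7.09 and 5.86 CPM. Both aged podocyte values lay under both young ones, with a log2 fold change of -0.74 (SE 0.26, adjusted p = 0.0962). Mesangial cells had 14.7 and 16.7 against 23.1 and 21.8 CPM, and a log2 fold change of 0.63 (SE 0.25, adjusted p = 0.167). The age effect differed between podocytes and mesangial cells by 1.46 (SE 0.36, adjusted p = 0.0145 for the interaction), and between podocytes and endothelial cells by 0.93 (SE 0.24, adjusted p = 0.0271), although none was called within a class.

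Tgfbr2, the ligand-binding type II receptor, was highest in endothelial cells, at 287 and 365 CPM in young and 229 and 289.8 in aged libraries, above the other classes with 20 cells in every library. Mesangial cells followed with 193 and 211 against 153 and 161 CPM, lower in both aged libraries. That difference was not called, with a log2 fold change of -0.26 (SE 0.14, adjusted p = 0.325, edgeR). Podocytes ranged from 41.0 to 55.7 CPM and parietal epithelial cells from 36.3 to 43.7 CPM.

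Betaglycan transcripts (Tgfbr3) had another distribution. Podocytes had 120.4 and 151 CPM in young and 142 and 117 in aged libraries, parietal epithelial cells 133 and 137 against 109 and 99.0, and mesangial cells 110.2 and 119 against 127 and 103. These 3 classes overlapped, and all lay above endothelial cells, at 40.9 to 58.8 CPM. The podocyte age effect was 0.00 on the log2 scale (SE 0.14). An approximate 95% interval from the SE ran from -0.27 to 0.27.

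Tgfbi, named for its induction by TGF-beta, was a transcript of myeloid cells. Monocytes had 296 and 255 CPM in young and 263 and 221 in aged libraries, and aged macrophages 259.5 and 184. Endothelial cells ranged from 9.98 to 13.7 CPM. In mesangial cells 4 and 1 UMIs in young and 56 and 34 in aged libraries gave 2.45 and 0.985 against 10.9 and 5.66 CPM, without overlap. The log2 fold change of 2.21 (SE 0.65) was not called (adjusted p = 0.0674, edgeR). Against endothelial cells the age effect differed by 2.32 (SE 0.61, adjusted p = 0.0355 for the interaction). Macrophage and monocyte markers in mesangial cells are not given here, and their part in mesangial Tgfbi was not tested. In 351 B cells and 207 T and NK cells Tgfbi gave no UMI, which allows shares of up to 0.855% and 1.45%. Such limits cover counting error only.

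**Figure D3:**
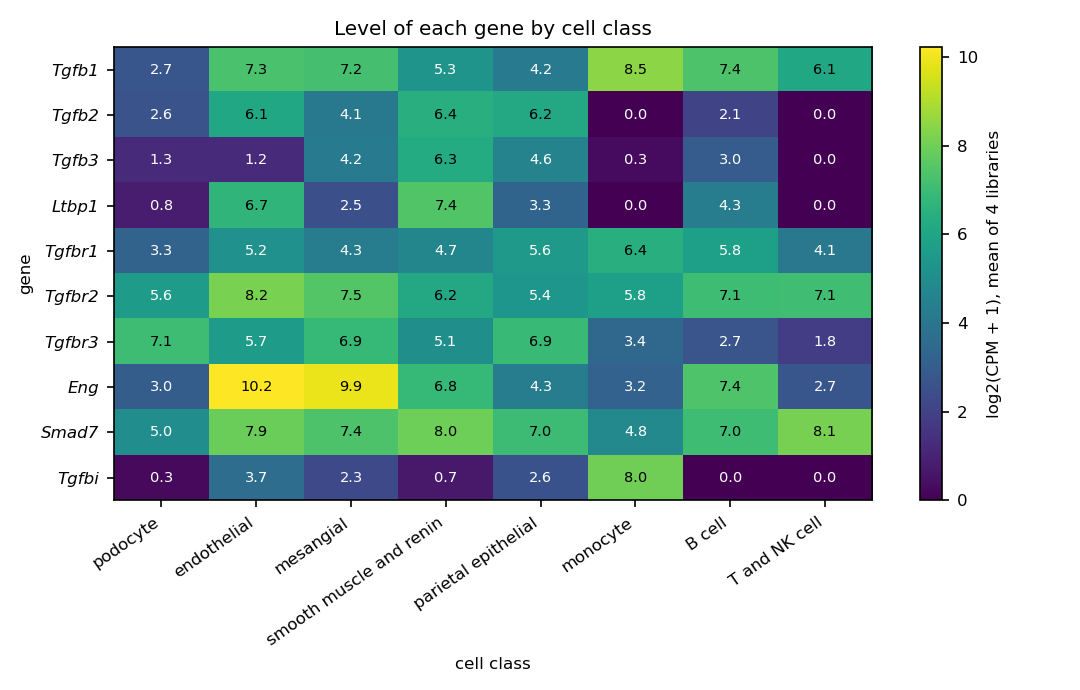
Mean level of each gene over 4 libraries, as log2(CPM + 1), in the 8 classes with at least 20 cells in every library; brighter squares are higher and the number is printed in each. Eng peaks in endothelial and mesangial cells, Tgfb1 and Tgfbi in monocytes, and Tgfb3 and Ltbp1 in smooth muscle and renin cells. Tgfbr3 has its highest mean in podocytes, with ranges that overlap those of parietal epithelial and mesangial cells.

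Eng in parietal epithelial cells had 37.9 and 42.6 CPM in young and 15.6 and 4.95 in aged libraries, from only 6, 9, 5 and 3 UMIs. The log2 fold change of -2.13 (SE 0.60) was not called (adjusted p = 0.0816, edgeR). The age effect differed from that of mesangial cells by -2.77 (SE 0.59, adjusted p = 0.00504 for the interaction) and from that of endothelial cells by -2.34 (SE 0.66, adjusted p = 0.0313). With at most 10% mitochondrial UMIs these differences turned to 0.63 (adjusted p = 0.947) and 1.10 (adjusted p = 0.925), so no direction is given for them. Endothelial markers in parietal epithelial cells summed to 791 and 1023 CPM in young and 581 and 567 in aged libraries, with at least 9 of 10 detected. Their part in the Eng values was not tested.

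Over the 6 pairs of glomerular classes, 9 of 58 interactions tested were called. For podocytes and endothelial cells it was 1 of 10, against 5.76% of all genes, and for podocytes and mesangial cells 3 of 10, against 4.59%. For podocytes and parietal epithelial cells it was 0 of 9, against 1.76%, with 2 at an unadjusted p under 0.05. Endothelial and mesangial cells gave 2 of 10, against 3.45%, and endothelial and parietal epithelial cells 2 of 10, against 1.61%. Mesangial and parietal epithelial cells gave 1 of 9, against 1.72%. DESeq2 called 0, but gave no adjusted p for some of them, among these Tgfbr1 in podocytes and mesangial cells and Tgfbi in endothelial and mesangial cells. Within the pairs, leaving out 1 library ended the call of every one of the 9 for at least 1 of the libraries, with values in the closing section.

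**Figure D4:**
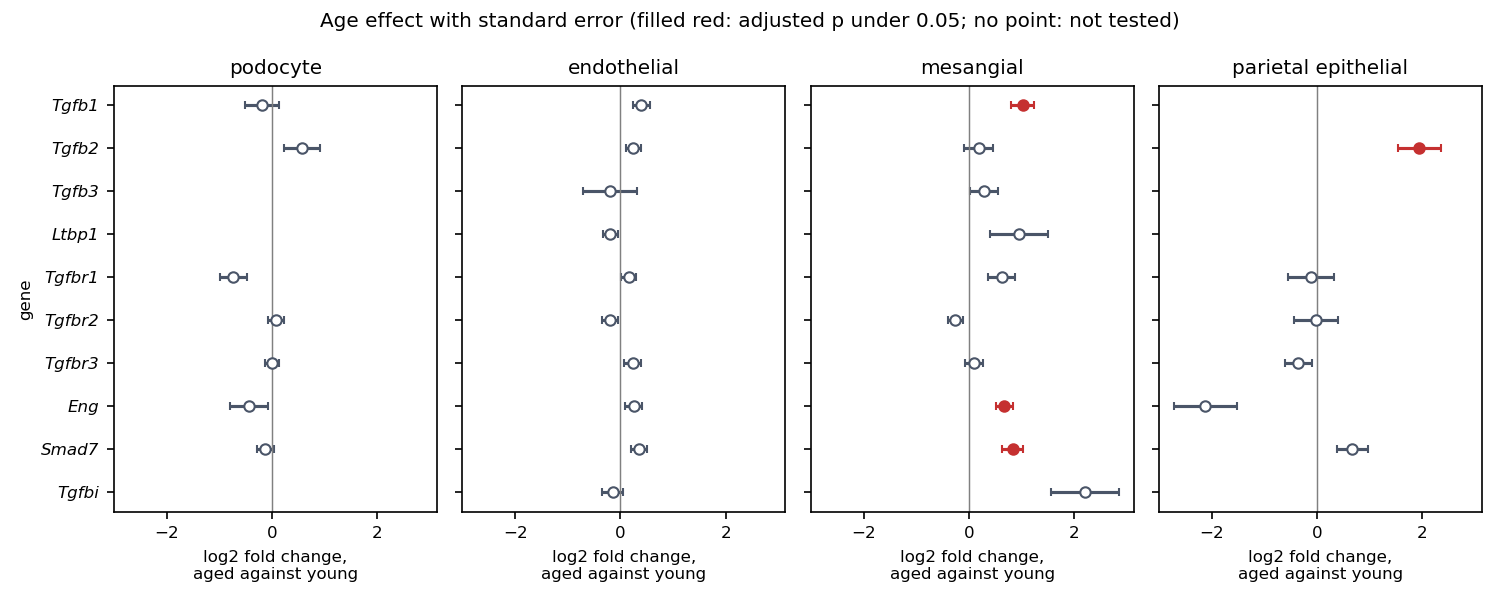
Age effect of each gene, as log2 fold change of aged against young with its standard error, in 4 glomerular classes. Filled red points have an adjusted p under 0.05 (Tgfb1, Eng and Smad7 in mesangial cells and Tgfb2 in parietal epithelial cells), and genes without a point did not pass the count filter.

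In smooth muscle and renin cells 0 of 6 members were called, where 2.94% of all genes were, and in monocytes 0 of 5, against 0.898%. B cells gave 0 of 4 with 0 of 2333 genes called, and T and NK cells 0 of 2, against 0.181%. Of these, 1 monocyte member and 0 in the other classes had an unadjusted p under 0.05, and DESeq2 called 0 members in each of the 4 classes.

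Other genes of the pathway were followed in 3 lists. These lists were chosen with earlier results of these data known, so their counts are a description and not a test of the pathway. Of all genes tested, 3.66% were higher and 1.87% lower in podocytes, 3.97% and 2.22% in endothelial cells, 4.34% and 2.26% in mesangial cells and 1.79% and 1.34% in parietal epithelial cells. Proteins of latency, activation and binding had 6 of 14 tested genes higher and 0 lower in mesangial cells, with a median log2 fold change of 0.69 against -0.01 over all genes. They include Thbs1, which encodes the ligand-activating thrombospondin-1, at 29.4 and 68.0 CPM in young and 326 and 382 in aged libraries (log2 fold change 3.03, SE 0.28, adjusted p = 0.000145, edgeR). Dcn, encoding the ligand-binding proteoglycan decorin, rose from 3.06 and 0.985 to 29.7 and 47.6 CPM, with few UMIs in the young libraries. Dcn is also a fibroblast marker, and fibroblasts were not weighed as a class when clusters were named. Their part in mesangial Dcn was not tested. In endothelial cells 5 of 16 were higher and 1 lower. Bgn (biglycan) stood at 58.3 and 55.0 against 232 and 200.4 CPM there. Lrg1, which encodes a modulator of endothelial TGF-beta signalling, had 23.7 and 26.6 against 87.2 and 79.0 CPM. The endothelial gene Lrrc32 encodes GARP, which displays latent ligand on the cell surface, and rose from 262 and 248 to 466 and 412 CPM. Itgb5, an integrin subunit, fell from 51.5 and 56.5 to 27.8 and 28.4 CPM. In parietal epithelial cells 2 of 13 were higher, and in podocytes 0 of 11 were called in either direction.

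Receptors, SMADs, coregulators and inhibitors had 4 of 36 higher and 2 lower in mesangial cells, 5 of 38 and 1 in endothelial cells, 1 of 35 and 1 in podocytes and 1 of 24 and 0 in parietal epithelial cells. Tgif1, a SMAD corepressor, moved in opposite directions. It fell in podocytes from 12.0 and 11.3 to 1.95 and 2.63 CPM (log2 fold change -2.30, SE 0.32, adjusted p = 2.61e-05, edgeR). In mesangial cells it rose from 7.35 and 7.88 to 29.1 and 23.0 CPM (log2 fold change 1.88, SE 0.31, adjusted p = 0.00620). The age effects differed by 4.27 (SE 0.45, adjusted p = 2.7e-07 for the interaction, edgeR), a test written out after the data were seen. It was called without any 1 library, but not with mixed cells kept (4.30, adjusted p = 0.589) or after thinning (3.22, adjusted p = 0.202). Pmepa1, an inhibitor of SMAD signalling, rose in parietal epithelial cells from 44.3 and 66.3 to 119 and 169.9 CPM.

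Transcripts commonly induced by TGF-beta had 7 of 24 higher and 0 lower in podocytes, 7 of 30 and 0 in endothelial cells, 6 of 32 and 2 in mesangial cells and 4 of 22 and 1 in parietal epithelial cells. Ctgf, encoding connective tissue growth factor, stood in podocytes at 153 and 159.8 CPM in young and 634 and 563 in aged libraries (log2 fold change 1.99, SE 0.14, adjusted p = 2.81e-10, edgeR). Podocyte Tagln, an actin-binding protein, had 18.6 and 19.2 against 50.01 and 48.1 CPM. Heme oxygenase 1 (Hmox1) in podocytes had 31.4 and 35.01 against 50.7 and 54.8 CPM. The protease inhibitor gene Timp1 (0.774 and 0.913 against 5.32 and 8.49 CPM) was called there from few UMIs. Endothelial Hmox1 stood at 24.0 and 28.8 against 59.7 and 72.3 CPM.

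In mesangial cells the matrix glycoprotein gene Tnc rose from 38.0 and 39.4 to 169 and 172 CPM. Mesangial Hmox1 rose from 84.5 and 74.9 to 202 and 234 CPM, and Angptl4, a secreted lipase inhibitor, from 50.8 and 44.3 to 96.0 and 119.9 CPM. In parietal epithelial cells Ctgf rose from 455 and 554 to 1215 and 1183 CPM. Parietal epithelial Tagln had 2264 and 2563 against 4899.7 and 6296 CPM, and smooth muscle actin (Acta2) 50.6 and 133 against 272 and 577 CPM. Both are also among the smooth muscle markers given above and make up nearly all of that sum. Vim, the intermediate filament gene, had 2131 and 1379 against 4403 and 4734 CPM in these cells. Junb, an AP-1 subunit, fell there from 1720.4 and 1781 to 693 and 1069 CPM. Without young replicate 1 or young replicate 2 the mesangial count over the 3 lists dropped from 20 to 4 in either case, and the endothelial one from 19 to 2. The endothelial count was 10 without aged replicate 1, the mesangial count 35 without aged replicate 2, and the podocyte count went from 9 to 17 without young replicate 2 and to 5 without aged replicate 2.

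**Figure D5:**
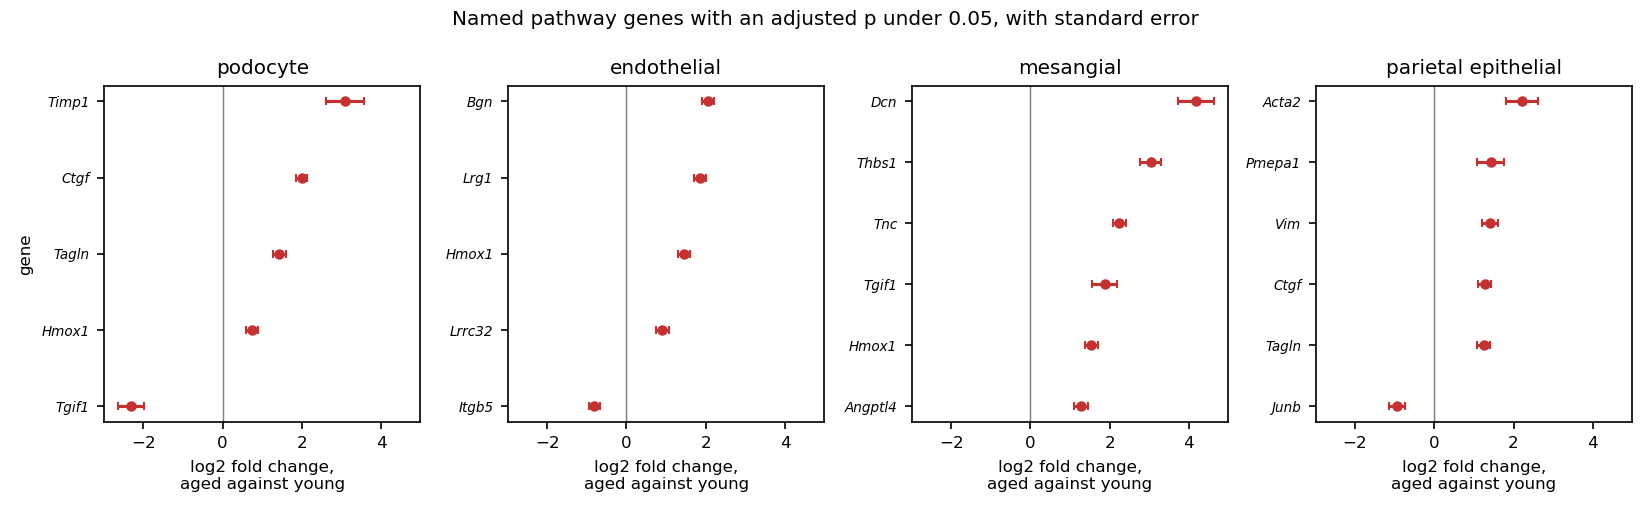
Named genes of the 3 pathway lists with an adjusted p under 0.05, by class, as log2 fold change of aged against young with its standard error. Of those shown, 4 of 5 are higher in podocytes, 4 of 5 in endothelial cells, 6 of 6 in mesangial cells and 5 of 6 in parietal epithelial cells.

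Genes with a pattern most like each member were found over 41 class sums of 12 classes, by Pearson's correlation of log2(CPM + 1) among 8427 genes. These sums share libraries and depth, so r describes them only. Tgfb1 was most like Adgre5 (r = 0.944) and B2m, and Tgfb2 like Pdgfd (r = 0.889), Ppp1r15a and Id4. Tgfb3 paired with Dmpk (r = 0.888), Fxyd1 and Mark1, and Ltbp1 with Gja4 (r = 0.935), Limch1 and Hspg2. For the receptors the leading genes were Mpp6 (r = 0.729), Capg and Gpx1 with Tgfbr1, S1pr1 (r = 0.792), Sipa1 and Ubn1 with Tgfbr2, and Hspa12a (r = 0.900), Calu and Cuedc1 with Tgfbr3. Eng was most like Prex2 (r = 0.938), Igfbp5 and Exoc3l2. Smad7 was most like Prkar1a (r = 0.883) and Gem, and Tgfbi like Alox5ap (r = 0.921), Atox1 and Clec7a.

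Gene positions are from GENCODE release 21 of the mouse annotation (GRCm38). Tgfb1 lies at chr7:25687002-25705077 and Eng at chr2:32646595-32682669 on the plus strand, and Tgfb2 at chr1:186622792-186705989 on the minus strand. Fpgs overlaps Eng and Ttll5 overlaps Tgfb3 on the opposite strand, and an antisense gene overlaps Tgfb2. Tgfbr3 and Ltbp1 each overlap a predicted gene on the same strand, and whether the counting used strand is not given in the sources used here.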

How the data were processed

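The data were gene by cell matrices of UMI counts from 4 droplet 3′ libraries, 2 young and 2 aged. The authors deposited these counts unnormalized. Cell Ranger 3.1.0 is named in the labels' protocols and 6.0.1 in the submitters' processing notes, with GRCm38 as build.

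Barcodes with under 500 genes or over 20% mitochondrial UMIs were removed, as were doublets ranked by Scrublet (0.8% per 1000 barcodes, 221 to 798 per library; its automatic threshold marked 0 to 133). Cells were clustered in scanpy 1.11.5 (2000 variable genes, 30 components, 15 neighbours, Leiden resolution 1). Clusters were named from marker lists, with thresholds set after the data were seen. A name needed a marker level of at least 0.35 and at least 3 detected markers. A cluster was mixed where an unrelated class reached 0.25 of the level of the best class. Single cells with markers of an unrelated class were also left out, 16 to 81 per library. Counts were summed per library and class (at least 20 cells in each library) and tested with edgeR 4.0.16 (R 4.3.3; TMM, filterByExpr, quasi-likelihood F test), with p-values adjusted over all genes tested. Interactions had library as a block. Levels are CPM of the class sum.

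The members and gene lists were chosen with earlier results of these data known. Named were all 10 members, up to 6 pathway genes per glomerular class with the smallest p among those called, and the 3 genes most like each member, except a few that are not reported here. Other genes named within a list, such as markers at 0 and leading genes of clusters, describe that list. On simulated counts, edgeR recovered 37.8% of 2-fold changes in mesangial cells, 52.1% in parietal epithelial cells, 73.2% in endothelial cells and 82.7% in podocytes. Total counts per library ran from 18457791 to 42046542 UMIs. Alternatives were DESeq2 1.42.0, other size factors, no count filter, a replicate block, each library left out, doublets or mixed cells kept, at most 10% mitochondrial UMIs, Leiden resolutions 0.5 and 2, and cells thinned to 1000 UMIs. Promoter sequences are from RefSeq and were used for 7 of 10 members. Windows of members on chromosome 18, where Smad7 lies, were left out.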

Additional observations from a re-analysis of the deposited data

Results flagged for a closer look

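In 9 cases the age effect of a gene differed between classes by edgeR's interaction test. DESeq2 called 0 of them, but gave no adjusted p for Tgfbr1 in podocytes and mesangial cells or Tgfbi in endothelial and mesangial cells. All are differences on the log2 scale, the second class minus the first, with adjusted p. For Tgfbr1 the difference between podocytes and endothelial cells was 0.93 (adjusted p = 0.0271), and it ranged from 0.88 to 1.04, with adjusted p from 0.0558 to 0.111, when any 1 library was left out.

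Between podocytes and mesangial cells, Tgfb1 differed by 1.26 (adjusted p = 0.0286), Tgfbr1 by 1.46 (adjusted p = 0.0145) and Smad7 by 1.04 (adjusted p = 0.00304). The Tgfb1 call was lost without young replicate 2 (0.97, adjusted p = 0.166) and without aged replicate 1 (0.53, adjusted p = 0.636). Tgfbr1 lost its call without young replicate 1 (adjusted p = 0.140), young replicate 2 (adjusted p = 0.0688) or aged replicate 1 (adjusted p = 0.0530), and Smad7 without young replicate 1 (0.75, adjusted p = 0.186).

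Between endothelial and mesangial cells, Tgfb1 differed by 0.60 (adjusted p = 0.0364) and Tgfbi by 2.32 (adjusted p = 0.0355). Without young replicate 1 the adjusted p were 0.280 and 0.163, and without young replicate 2 they were 0.255 and 0.341. Tgfbi was also not called without aged replicate 1 (adjusted p = 0.0653).

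Between endothelial and parietal epithelial cells, Tgfb2 differed by 1.78 (adjusted p = 0.00192) and Eng by -2.34 (adjusted p = 0.0313). Tgfb2 was not called without young replicate 2 (1.2, adjusted p = 0.442) or aged replicate 2 (1.60, adjusted p = 0.107). Eng was not called without any 1 library (adjusted p from 0.0593 to 0.80). Between mesangial and parietal epithelial cells Eng differed by -2.77 (adjusted p = 0.00504), and was called only without aged replicate 1 (-3.49, adjusted p = 0.000511) among the 4 libraries left out.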

How the results depend on the processing

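Over 14 alternatives, 1165 of 1406 values of single members kept their direction and side of the threshold, or kept their direction without an adjusted p. In the same direction, 90 lost their call and 22 gained one. Another 119 changed direction without a call in either setting. The direction of 10 reversed with a call in the main setting or the alternative. Mesangial Ltbp1 reversed to -1.33 with doublets kept, -2.11 and -1.72 at Leiden resolutions 0.5 and 2, and -1.76 with mixed cells kept; its difference from endothelial cells became -1.19, -1.94, -1.60 and -1.57. At most 10% mitochondrial UMIs turned the Eng differences of parietal epithelial from endothelial and mesangial cells to 1.10 and 0.63. The cause was not tested. Members called in smooth muscle and renin, B, T and NK cells and monocytes stayed at 0 under every alternative.

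Members called numbered 1 (Tgfb1) in endothelial cells with the replicate block and 0 in mesangial cells after thinning. In parietal epithelial cells they numbered 0 with DESeq2, doublets kept, at most 10% mitochondrial UMIs, resolution 0.5 or thinning, and 2 with the replicate block or resolution 2. Pathway genes called in podocytes numbered 1 with mixed cells kept and 3 after thinning, and in endothelial cells 2 without a count filter. In mesangial cells they numbered 34 without a filter, 35 with the replicate block and 6 after thinning. In parietal epithelial cells they numbered 5 with DESeq2, 13 with the replicate block, 4 after thinning and 0 with doublets kept, at most 10% mitochondrial UMIs or resolution 0.5.

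Interactions called for podocytes and endothelial cells numbered 0 with DESeq2, mixed cells kept or thinning, and 2 without a filter or at most 10% mitochondrial UMIs. For podocytes and mesangial cells they numbered 0 with DESeq2, resolution 0.5, mixed cells kept or thinning. For endothelial and mesangial cells they numbered 0 with DESeq2, at most 10% mitochondrial UMIs or thinning, 1 with doublets kept or either other resolution (Ltbp1 in the reversed direction, with neither Tgfb1 nor Tgfbi called), and 4 without a filter. For endothelial and parietal epithelial cells they numbered 0 with DESeq2, doublets kept, at most 10% mitochondrial UMIs, resolution 0.5 or thinning. For mesangial and parietal epithelial cells they numbered 0 under those same 5 settings, and 2 at resolution 2 or with mixed cells kept.

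With each library left out in turn, members called ranged from 0 to 1 in podocytes, 0 to 4 in mesangial and 0 to 1 in parietal epithelial cells, and pathway genes from 5 to 17 in podocytes, 2 to 18 in endothelial and 4 to 35 in mesangial cells. Interactions ranged from 0 to 1 for podocytes and endothelial cells, 1 to 3 for podocytes and mesangial cells, 0 to 3 for endothelial and mesangial cells, 0 to 1 for endothelial and parietal epithelial cells and 0 to 2 for mesangial and parietal epithelial cells. Where 1 library of an age remained, it was assumed to vary like the other age. Replicate numbers are not stated to pair libraries, and deviations of same-numbered libraries correlated at -0.018 to 0.185, so the block is only an alternative. In parietal epithelial cells, sums of 158105 to 606235 UMIs limit precision.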
